A study of Mus musculus with 10 samples.

Results

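The transcripts of 45 genes were examined: Myc, a transcription factor that drives cell growth, and 44 factors with which cells build ribosomes. The genes were chosen by name and function, as nucleolar factors, RNA polymerase I components and ribosomal RNA (rRNA) processing factors. Each of the 45 symbols matched 1 Ensembl gene of the GRCm38 mouse annotation, out of 55421 genes in the count table. The cells came from Shp2f/f mice, which carry a floxed Ptpn11 gene (genotype Shp-2fl/fl), and from Shp2f/fLysMcre mice, which carry the same floxed gene and in addition Cre recombinase under the lysozyme (LysM) promoter, so that Ptpn11 is deleted in myeloid cells. Ptpn11 encodes the phosphatase SHP-2. All mice bore MC17-51 fibrosarcoma tumors, called M17 in the sample descriptions, and were young adults. On day 15 after implantation, GR-1+ myeloid-derived suppressor cells (MDSC) were collected from the spleen with magnetic beads (the study calls them PMN-MDSC), and CD11b+F4/80+ tumor-associated macrophages (TAM) were sorted from the tumor. RNA-seq was done on 3 TAM libraries and 2 MDSC libraries of each genotype. Each MDSC group therefore rests on a pair of libraries. TAM were taken from the same mice as MDSC, and the labels do not say which libraries share a mouse or whether a library came from 1 mouse or several. The p-values below measure the spread between these libraries, which may be technical.

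Ribosomes are assembled in the nucleolus. RNA polymerase I transcribes a long rRNA precursor, small nucleolar ribonucleoproteins (snoRNPs) guide its chemical modification, and separate sets of factors fold and cut it into the small and the large ribosomal subunit. Myc is known to activate many genes of this pathway, and a dividing cell needs a steady supply of ribosomes to grow.

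Library totals ran from 28844660 to 38222998 reads assigned to genes, and each member had at least 213 reads in every library, so that all 45 passed the filter on low counts in each fit. Ptpn11, the deleted gene, fell in TAM from 120.2 ± 1.46 to 50.8 ± 1.75 CPM (reads of a gene per 1000000 reads of the library; SD, n = 3 libraries per group; log2 fold change -1.24, edgeR adjusted p = 2.96e-09). In MDSC, Ptpn11 was at 111.5 ± 10.4 CPM in Shp2f/f and 91.3 ± 12.2 CPM in Shp2f/fLysMcre (n = 2 per group; log2 fold change -0.29, edgeR adjusted p = 0.361). The lower level in MDSC did not pass the test, so the deletion is not shown by transcript level there. All 10 macrophage markers were detected in TAM (summed level 13279 to 13727 CPM in Shp2f/f libraries), and all 11 neutrophil markers were detected in MDSC (9952 to 10296 CPM). The macrophage list was not absent from MDSC, where it summed to 3266 to 3427 CPM in Shp2f/f libraries, led by Csf1r, the receptor of macrophage colony stimulating factor. B and plasma cell markers summed to 2656 to 4016 CPM in the 4 MDSC libraries, and pancreas markers to 855 to 6695 CPM in Shp2f/f TAM against 18.7 to 87.3 CPM in Shp2f/fLysMcre TAM. The highest of these was Shp2f/f TAM library 3. Shp2f/fLysMcre MDSC library 2 also stood apart: 11 fibroblast and tumor markers (Fn1 left out) summed to 694.7 CPM there and to 28.1 to 49.3 CPM in the other 3 MDSC libraries.

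All 45 genes were expressed in both cell types of Shp2f/f mice, and most of them more strongly in TAM. In a fit of the 5 Shp2f/f libraries, 40 of the 45 members were higher in TAM than in MDSC and 3 were lower by edgeR's quasi-likelihood test with Benjamini-Hochberg adjustment over all genes (adjusted p under 0.05), where 78.8% of all genes tested were called (40.0% higher and 38.8% lower). The members' median log2 difference was 0.77, against 0.01 over all genes. In 41 members every TAM library lay above both MDSC libraries, which held for 43.6% of all genes, and in 3 every TAM library lay below, which held for 42.6% (86.2% in either direction). Cell type, tissue and purification method differ together between these groups and cannot be told apart. The same Shp2f/f libraries serve as controls in the genotype comparisons below.

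Myc showed the widest gap between TAM and MDSC among the members. Scaled over these 5 libraries, its level was 56.7, 60.5 and 60.6 CPM in the TAM libraries and 15.0 and 14.7 CPM in the MDSC libraries, which do not overlap (log2 difference 2.0, SE 0.060, edgeR adjusted p = 1.80e-09). Gnl3 (nucleostemin, a nucleolar GTP-binding protein) followed with a log2 difference of 1.93, then Nop58 with 1.61, Tsr1 with 1.56 and Nop56 with 1.52. The RNA polymerase I genes did not move as one: Polr1b, the second largest subunit of the enzyme, was higher in TAM by 0.79 on the log2 scale, whereas Polr1e, a subunit that helps the enzyme start, was lower (log2 difference -0.71, adjusted p = 6.29e-06). Bysl (bystin, a small subunit factor) and Polr1c (a subunit shared with RNA polymerase III) were lower by a smaller amount, with log2 differences of -0.19 and -0.16. Nop10 and Pes1 did not pass the test (log2 differences -0.03 and 0.09). The weakest calls held in few settings. Ubtf (log2 difference 0.11) was called in 3 of 13 alternatives and lost significance with any of the 5 libraries left out (adjusted p from 0.0585 to 0.189). Polr1c was called in 6 of 13, and lost significance when TAM library 1 (0.0608), TAM library 3 (0.0845) or MDSC library 2 (0.0831) was left out. Nop10 became lower in TAM without MDSC library 1 (log2 difference -0.17, adjusted p = 0.029).

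Levels of different genes were compared per kilobase of exon (RPKM, scaled over all 10 libraries). Every annotated exon counts in the length (Wdr12 11955 bases, Ncl 10188, Npm1 2665), used here or not. The order depends on these lengths, which the spread between libraries does not cover. By CPM over the 5 Shp2f/f libraries, TAM means were 979.4 for Ncl and 547.9 for Npm1, and 33.8 for Wdr12 and 11.6 for Polr1e. By RPKM, Npm1 (nucleophosmin, an abundant nucleolar chaperone) was the highest member in all 4 groups and Wdr12 (a large subunit factor) the lowest. The gap was 72.7-fold in Shp2f/f TAM and 62.0-fold in Shp2f/f MDSC. In Shp2f/f TAM, Npm1 stood at 201.2 ± 8.80 RPKM, Ncl (nucleolin, which binds nascent rRNA) at 94.1 ± 2.89 RPKM (SD, n = 3). Wdr12 stood at 2.77 ± 0.0663 RPKM. With the members put in order, 20 of the 44 neighboring pairs in Shp2f/f TAM had library values that did not overlap, and the other 24 pairs cannot be ordered beyond their spread. Myc held place 15 of 45 in Shp2f/f TAM (21.3 ± 0.851 RPKM) and place 34 in Shp2f/f MDSC (5.33 ± 0.0533 RPKM, n = 2).

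In TAM, deletion of SHP-2 went with lower transcript levels of nearly the whole set. Of the 45 members, 43 fell and 0 rose in Shp2f/fLysMcre TAM (edgeR quasi-likelihood test, adjusted p under 0.05), where 50.2% of all 14446 genes tested were called (26.3% fell and 23.9% rose). The median log2 fold change of the members was -0.53, against -0.01 over all genes, and the members ranged from -0.90 to 0.03. In the same 43 members every Shp2f/fLysMcre library lay below every Shp2f/f library, which held for 30.6% of all genes (27.7% lay above, 58.2% in either direction). The summed level of the 45 members was 4677 to 4697 CPM in the Shp2f/f libraries and 3050 to 3207 CPM in the Shp2f/fLysMcre libraries (CPM of the total count). In bulk RNA, fewer cells of a type and less RNA per cell cannot be told apart. Without Shp2f/f TAM library 3, which held the most pancreas transcripts, 43 members were again lower, where 43.65% of all genes were called in either direction.

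**Figure D1:**
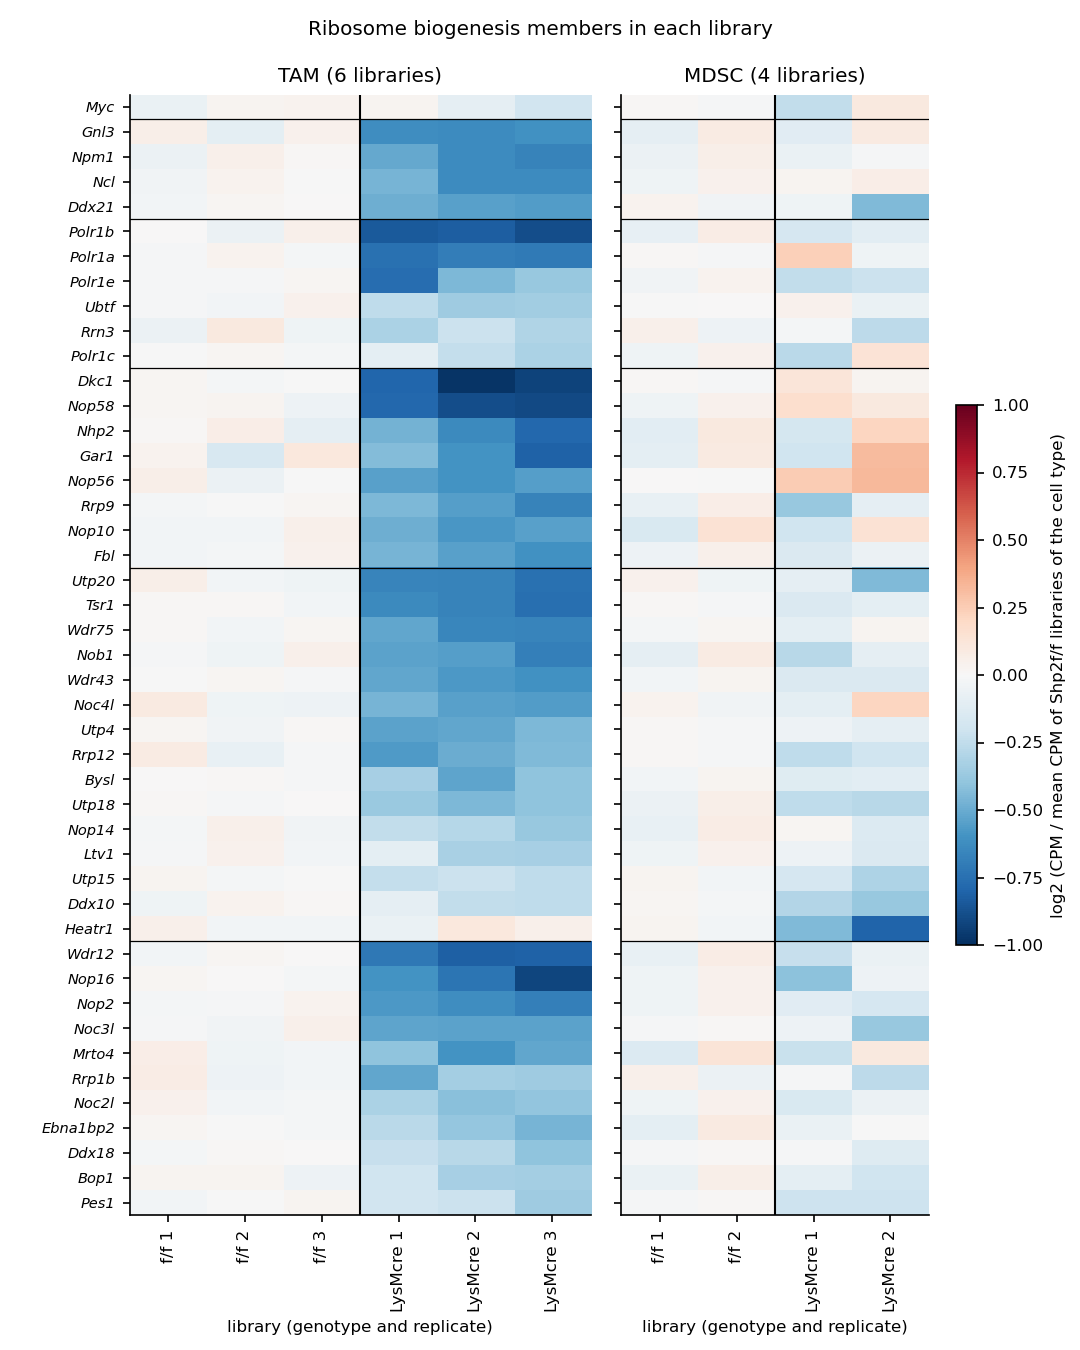
Each row is a member, ordered by role and by its change in TAM, and each column is a library. Color gives log2 of the CPM over the mean CPM of the Shp2f/f libraries of that cell type (blue lower, red higher). The 3 Shp2f/fLysMcre TAM columns are blue in all rows but Myc and Heatr1, while the MDSC columns are paler and mixed, with the Heatr1 row the deepest blue among the Shp2f/fLysMcre MDSC values.

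Myc itself did not pass the test. Its level was 54.5, 58.1 and 58.2 CPM in Shp2f/f TAM and 58.0, 53.5 and 49.9 CPM in Shp2f/fLysMcre TAM. The groups overlap, since Shp2f/fLysMcre library 1 lies among the Shp2f/f libraries. The mean was 57.0 ± 2.09 against 53.8 ± 4.06 CPM (SD, n = 3; log2 fold change -0.08, SE 0.056, edgeR adjusted p = 0.256). This depended on the processing: without Shp2f/fLysMcre TAM library 1, Myc was lower (log2 fold change -0.14, edgeR adjusted p = 0.0395), and scaling by total counts gave -0.18 (adjusted p = 0.0133). In each of these settings the change of Myc was smaller than the members' median.

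The nucleolar organisers Ncl, Npm1, Gnl3 and Ddx21 all fell, with a median log2 fold change of -0.59. Ncl, the member with the most reads, was at 919.7, 965 and 939 CPM in Shp2f/f TAM. In Shp2f/fLysMcre TAM it was at 682, 608 and 607 CPM, 67.2% of the control level (log2 fold change -0.57, SE 0.048, edgeR adjusted p = 2.55e-06). Every library of the deleted group lay well under the control libraries. Npm1 stood at 65.9% of control, Gnl3 at 65.2% and Ddx21, an RNA helicase that links polymerase I to rRNA processing, at 69.2%. The Ncl and Gnl3 loci contain small nucleolar RNA genes on the same strand, so reads there may belong to either gene.

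The RNA polymerase I group also fell in all 6 genes, but unevenly (median -0.42). Polr1b fell from 37.5, 35.9 and 38.5 CPM to 20.9, 21.1 and 20.2 CPM, 55.6% of control (log2 fold change -0.85, SE 0.048, edgeR adjusted p = 1.57e-07). Polr1a, the catalytic subunit, fell from 62.0, 64.0 and 61.8 CPM to 37.4, 38.7 and 38.3 CPM (-0.72, SE 0.041, adjusted p = 1.64e-07). Neither gene showed overlap between the genotypes. The promoter factors changed less: Ubtf, which opens rRNA gene chromatin, had a log2 fold change of -0.32, and Rrn3, which recruits the polymerase, one of -0.28. Polr1c had the smallest call in the group at -0.21 (edgeR adjusted p = 0.00885), and that call was lost when all 10 libraries were fitted together (adjusted p = 0.244). Polr1e had a log2 fold change of -0.52.

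Among the 8 snoRNP proteins, all of which fell (median -0.58), stood the 2 members with the largest changes. Dkc1, dyskerin, is the pseudouridine synthase of the H/ACA snoRNPs and also a part of telomerase (gene on chromosome X, 75095854 to 75109777, plus strand). Its level was 63.1, 61.6 and 62.3 CPM in Shp2f/f TAM and 35.9, 31.5 and 32.9 CPM in Shp2f/fLysMcre TAM. That is 53.6% of control, with a wide gap between the groups (log2 fold change -0.90, SE 0.052, edgeR adjusted p = 1.73e-07). Nop58, a core protein of the box C/D snoRNPs that guide rRNA methylation (chromosome 1, 59684971 to 59719044, plus strand), followed it. Its level was 139.3, 140.4 and 132.9 CPM against 79.6, 74.3 and 73.5 CPM, 55.1% of control (log2 fold change -0.86, SE 0.043, edgeR adjusted p = 7.07e-08). The other C/D core proteins fell less: Nop56 had a log2 fold change of -0.56 and Fbl (fibrillarin, the methyltransferase) one of -0.54. Rrp9, the U3 snoRNP protein, had -0.55. The partners of dyskerin in the H/ACA particle fell by similar amounts, with -0.62 for Nhp2, -0.60 for Gar1 and -0.54 for Nop10. Small nucleolar RNA genes lie inside Nop56 and Nop58 on the same strand.

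**Figure D2:**
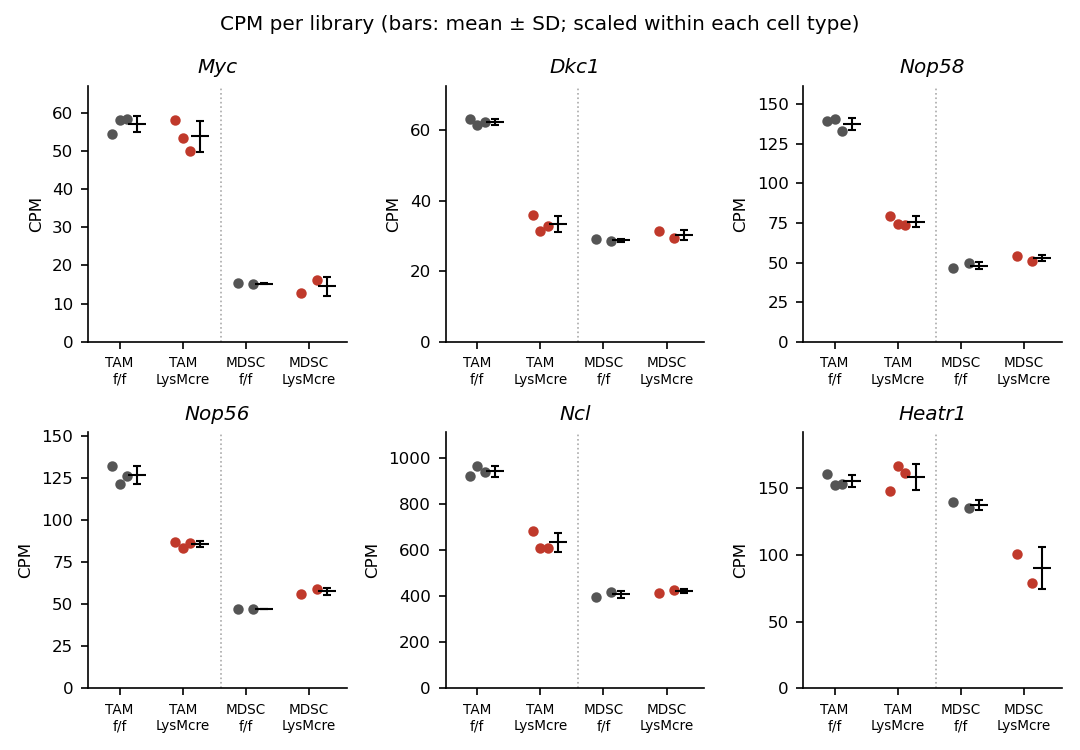
Points are single libraries (CPM, scaled within each cell type; gray Shp2f/f, red Shp2f/fLysMcre), and the bars give the mean ± SD of 3 TAM or 2 MDSC libraries. Dkc1, Nop58, Nop56 and Ncl separate by genotype in TAM, Myc does not, and Heatr1 separates in MDSC only.

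Of the 15 small subunit factors, 14 fell in TAM (median -0.50). Utp20, a large scaffold of the processome that prepares the small subunit rRNA, had the largest change (-0.69, SE 0.045, edgeR adjusted p = 3.92e-07), and Tsr1, a GTPase-like factor of late maturation, was next to it (-0.69, SE 0.043, adjusted p = 3.33e-07). Wdr75, Nob1 (the endonuclease that makes the last cut of the small subunit rRNA), Wdr43, Noc4l, Utp4 and Rrp12 had log2 fold changes from -0.61 to -0.50. Bysl, Utp18, Nop14, Ltv1, Utp15 and Ddx10 had smaller ones, from -0.42 to -0.19. Ddx10, an RNA helicase of rRNA processing, was at the weak end (-0.19, edgeR adjusted p = 0.0107), and it lost significance without Shp2f/fLysMcre TAM library 2 (adjusted p = 0.0631) and in the fit of all 10 libraries (0.0807).

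Heatr1, another large scaffold protein of the processome, was the exception. Its level in TAM was 160.6, 152.4 and 152.7 CPM in Shp2f/f and 147.8, 166.6 and 160.9 CPM in Shp2f/fLysMcre. The libraries of both genotypes were interleaved, and the log2 fold change was 0.03 (edgeR adjusted p = 0.642), or -0.07 under total-count scaling. The Heatr1 locus (chromosome 13, 12395027 to 12440289, plus strand) overlaps Lgals8 on the other strand by 155 exonic bases. Tsr1 overlaps Srr by 1240 bases, Noc2l overlaps Samd11 by 598 and Bysl overlaps Ccnd3 by 361, each on opposite strands. Further exonic overlaps of this kind were found in other members, among them Polr1a (185 bases, with Gm26628), Wdr12 (61, with Carf) and Dkc1 (45, with Mpp1), and 16 members had one in all. The library kit was stranded, but whether strand was used in counting is not given in the sources used here, so reads in these overlaps may belong to either gene.

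All 11 large subunit factors fell as well (median -0.40). Wdr12, a part of the PeBoW complex, fell from 31.8, 33.0 and 32.7 CPM to 19.8, 18.4 and 18.5 CPM, 58.2% of control (log2 fold change -0.78, SE 0.048, edgeR adjusted p = 2.98e-07). The other proteins of that complex changed less, with -0.29 for Bop1 and -0.25 for Pes1. Nop16 had a log2 fold change of -0.74 and Nop2, an rRNA methyltransferase, one of -0.63. The nucleolar export partners Noc3l and Noc2l had -0.53 and -0.38. Mrto4 (-0.50), Rrp1b (-0.40), Ebna1bp2 (-0.37) and Ddx18 (-0.30) completed the set. Mrto4 has 2 named processed copies, Mrto4-ps1 and Mrto4-ps2, with which reads may be shared.

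Most other genes of the same pathway were lower as well. Of 117 further ribosome biogenesis genes, 90 fell and 3 rose in Shp2f/fLysMcre TAM, with a median log2 fold change of -0.31. Lower levels were called in 30 of 39 small subunit genes, 38 of 48 large subunit genes, 11 of 16 polymerase I genes and 11 of 14 nuclear exosome genes. The largest changes were those of Mdn1 (-0.87), the giant ATPase that strips factors from the large subunit, Rcl1 (-0.86), a small subunit processing factor, Nle1 (-0.70), Ppan (-0.69) and Nolc1 (-0.65), a nucleolar chaperone of snoRNPs. Nol11 (-0.55), Nat10 (-0.51), Polr1d (-0.52), Taf1d (-0.51), Dis3 (-0.61), Exosc2 (-0.55) and Exosc5 (-0.46) also fell.

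Known Myc targets outside the pathway were lower too, although Myc was not called. Of 25 such genes tested, 23 fell and 1 rose (median -0.55). Tfrc, the transferrin receptor, went from 399.5 ± 18.6 to 173.2 ± 3.98 CPM (log2 fold change -1.21, edgeR adjusted p = 8.26e-09). Srm, spermidine synthase, had a log2 fold change of -0.95 and Shmt1, an enzyme of one-carbon metabolism, one of -0.91. Of the 13 genes of the Myc and Max network that were tested, 6 rose and 2 fell, where 23.9% of all genes rose and 26.3% fell. The log2 fold changes of this list ran from -2.15 to 0.55 (median 0.11), so the estimate of largest size was a fall. The 3 largest calls at 5 CPM or more were rises: Mxd1, which competes with Myc for Max, went from 400.9 ± 5.99 to 585.7 ± 9.71 CPM (0.55, edgeR adjusted p = 3.95e-07), and Mxi1 and Max had log2 fold changes of 0.26 and 0.23.

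Cell division genes moved in the same direction in TAM. All 20 genes of the proliferation list fell (median -0.76), among them Bub1 (-0.99), Mki67 (-0.95) and Top2a (-0.95), and their summed level was 1999 to 2015 CPM in Shp2f/f and 1116 to 1182 CPM in Shp2f/fLysMcre TAM. Macrophage markers rose in 10 of 10 genes (median 0.70), with a sum of 19954 to 21472 CPM in Shp2f/fLysMcre TAM against the control sums given above. T and NK cell markers fell in 9 of 10 genes (median -1.21) and Cd4, which holds most of the list's counts in TAM, rose (log2 fold change 1.56). The list summed to 30.7 to 31.8 CPM in Shp2f/f and 54.6 to 56.1 CPM in Shp2f/fLysMcre TAM. Of the 10 neutrophil markers tested, 5 rose and 1, Mmp9, fell (median 0.34), and since Mmp9 held most of the counts the list summed to 4365 to 4592 CPM in Shp2f/f and 2294 to 2350 CPM in Shp2f/fLysMcre TAM. Of the 6 pancreas markers tested, 5 fell and 1 rose. The part of these shifts in the lower levels of the members was not tested.

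**Figure D3:**
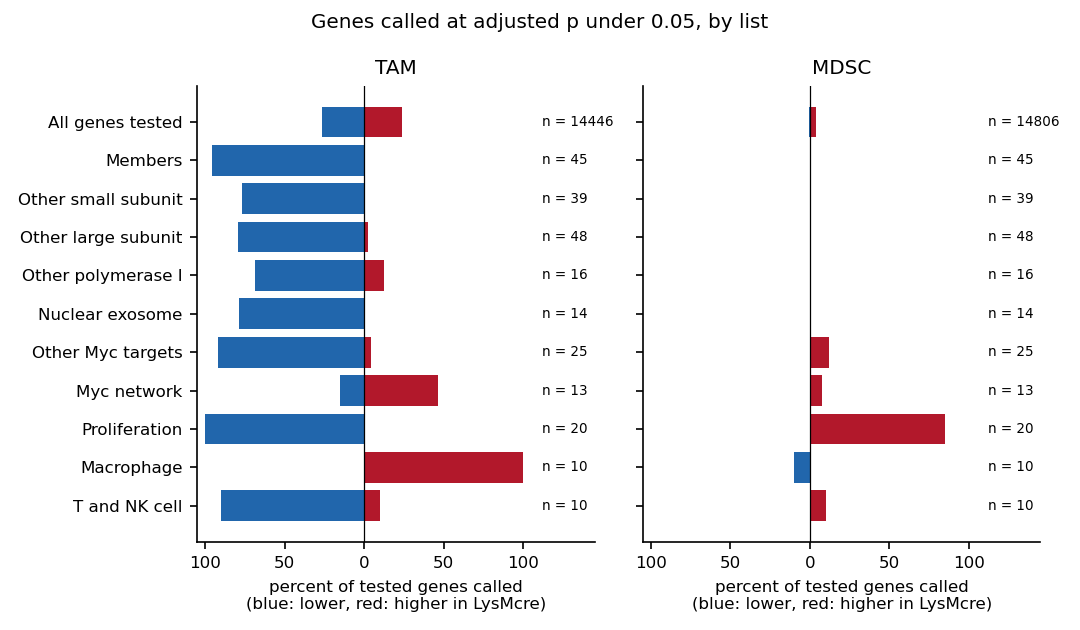
Bars give the percentage of tested genes of each list called at an adjusted p under 0.05 (blue, left: lower in Shp2f/fLysMcre; red, right: higher), with the number tested at the right. In TAM the bars of the members and of the other ribosome biogenesis lists point left or mostly left, beside 26.3% lower and 23.9% higher over all genes. In MDSC the bars of these lists are empty. The Myc network bar points mostly right in TAM, and the proliferation bar points left in TAM and right in MDSC.

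The promoters of the members were searched for the E-box CACGTG, the sequence that Myc binds together with Max. The motif reads the same on both strands. RefSeq promoter windows (GRCm38.p6, 250 bases before to 50 bases after each start) were at hand for 40 of the 45 members, and those of Myc, Npm1, Fbl, Rrp12 and Bop1 were not used here. The motif was in at least 1 window of 9 of the 40 members (22.5%), against 8.09% of all 27025 genes with a window and 11.5% of the 10408 genes with a window that were tested in TAM. It was found in 6 of 14 small subunit genes (Wdr43, Utp4, Utp18, Utp20, Ltv1 and Tsr1), 2 of 10 large subunit genes (Pes1 and Nop2), 1 of 6 polymerase I genes (Rrn3), 0 of 7 snoRNP genes and 0 of 3 nucleolar organisers. The windows of Dkc1, Nop58, Polr1b and Wdr12, the 4 members with the largest changes, do not hold these letters. The 9 members with the motif had a median log2 fold change of -0.50 in TAM and the 31 without it one of -0.53, so both sets had nearly the same median. Of the other Myc targets with a window, 11 of 24 held the motif, and of the proliferation list 0 of 17. A match is a description of the sequence and does not show binding.

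Of the members whose motif lies between 100 bases before and 30 bases after the start, the 6 with the largest changes in TAM are shown over that stretch, on the strand of the gene, with the motif in capitals, to show how differently it is placed in each. Utp20, whose motif begins at base 38, falls outside the stretch. They are Tsr1 (chr11:74897980-74898109, plus strand), Nop2 (chr6:125131783-125131912, plus), Wdr43 (chr17:71616115-71616244, plus), Utp4 (chr8:106893540-106893669, plus), Utp18 (chr11:93885737-93885866, minus) and Rrn3 (chr16:13780599-13780728, plus).
Tsr1: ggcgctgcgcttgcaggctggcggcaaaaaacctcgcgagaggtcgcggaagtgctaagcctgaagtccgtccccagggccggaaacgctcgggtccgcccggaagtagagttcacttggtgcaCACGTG
Nop2: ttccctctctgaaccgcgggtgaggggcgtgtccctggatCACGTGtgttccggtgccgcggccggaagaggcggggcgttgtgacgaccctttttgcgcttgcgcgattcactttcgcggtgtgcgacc
Wdr43: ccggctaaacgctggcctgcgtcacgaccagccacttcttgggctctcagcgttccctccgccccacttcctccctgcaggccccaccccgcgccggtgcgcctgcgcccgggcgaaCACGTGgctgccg
Utp4: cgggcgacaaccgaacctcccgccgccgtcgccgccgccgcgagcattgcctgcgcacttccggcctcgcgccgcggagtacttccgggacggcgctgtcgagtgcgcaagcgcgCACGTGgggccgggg
Utp18: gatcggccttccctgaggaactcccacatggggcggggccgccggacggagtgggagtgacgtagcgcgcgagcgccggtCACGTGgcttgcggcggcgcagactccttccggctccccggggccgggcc
Rrn3: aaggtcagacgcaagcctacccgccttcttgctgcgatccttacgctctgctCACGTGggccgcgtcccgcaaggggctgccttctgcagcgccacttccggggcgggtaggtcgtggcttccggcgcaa
The motif begins 60, 48 and 20 bases before the start in Nop2, Rrn3 and Utp18, and at base 16, 18 and 25 of the transcript in Utp4, Wdr43 and Tsr1. These 6 genes had log2 fold changes in TAM of -0.69 (Tsr1), -0.63 (Nop2), -0.57 (Wdr43), -0.50 (Utp4), -0.41 (Utp18) and -0.28 (Rrn3), each called. Tsr1, for one, went from 73.0, 72.9 and 71.0 CPM to 46.4, 45.6 and 42.8 CPM.

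In spleen MDSC, no member passed the test. Of the 45 members, 0 were called by edgeR, where 4.28% of all 14806 genes tested were called (3.76% higher and 0.520% lower). An unadjusted edgeR p under 0.05 was reached by 3 members (Heatr1, Ddx10 and Nop56) and by 2859 of all 14806 genes. DESeq2 called 1 member, Heatr1, and 8.48% of all genes. The members' log2 fold changes ran from -0.61 to 0.29 with a median of -0.10, against -0.01 over all genes. Estimates below 0 were found in 37 of the 45 members and in 7725 of all 14806 genes. In 22 members both Shp2f/fLysMcre libraries lay below both Shp2f/f libraries and in 3 they lay above, where 24.6% of all genes did each (49.1% in either direction). The summed level of the members was 2583 to 2681 CPM in Shp2f/f and 2460 to 2661 CPM in Shp2f/fLysMcre MDSC. With 2 libraries per group the SE of a member was 0.10 to 0.20 on the log2 scale, against 0.037 to 0.093 in TAM with 3.

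Heatr1 had the largest estimate in MDSC. Its level was 139.8 and 134.7 CPM in Shp2f/f and 100.9 and 78.7 CPM in Shp2f/fLysMcre MDSC, which do not overlap (log2 fold change -0.61, SE 0.15, edgeR adjusted p = 0.10, and from 0.000593 to 0.945 over the alternatives). Nop56 had the highest estimate: 47.3 and 47.0 CPM in Shp2f/f and 56.3 and 59.1 CPM in Shp2f/fLysMcre (0.29, SE 0.10, edgeR adjusted p = 0.207). Ddx10 stood at 37.1 and 36.2 CPM against 29.98 and 28.2 CPM (-0.33, edgeR adjusted p = 0.175). These 3 did not overlap between genotypes, which held for 49.1% of all genes and, among the members, for 22 lower and 3 higher ones. Myc overlapped, at 15.3 and 15.1 CPM against 12.8 and 16.2 CPM (-0.07, edgeR adjusted p = 0.882). The snoRNP group was the only one with a median above 0 (0.06), and the medians of the other groups lay between -0.14 and -0.02. Single libraries mattered here: without Shp2f/fLysMcre MDSC library 1, 4 members were called lower (Heatr1, Ddx10, Ddx21 and Utp20), where 27.2% of all genes were called, and without library 2 of that group, which held the fibroblast and tumor transcripts, 2 (Heatr1 and Nop16), where 18.0% were. A fit of all 10 libraries, which takes its spread mostly from TAM, called 5 members (Heatr1, Ddx10, Utp15 and Utp18 lower, Nop56 higher) and 16.1% of all genes. In none of these settings did the members' share exceed that of all genes.

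**Figure D4:**
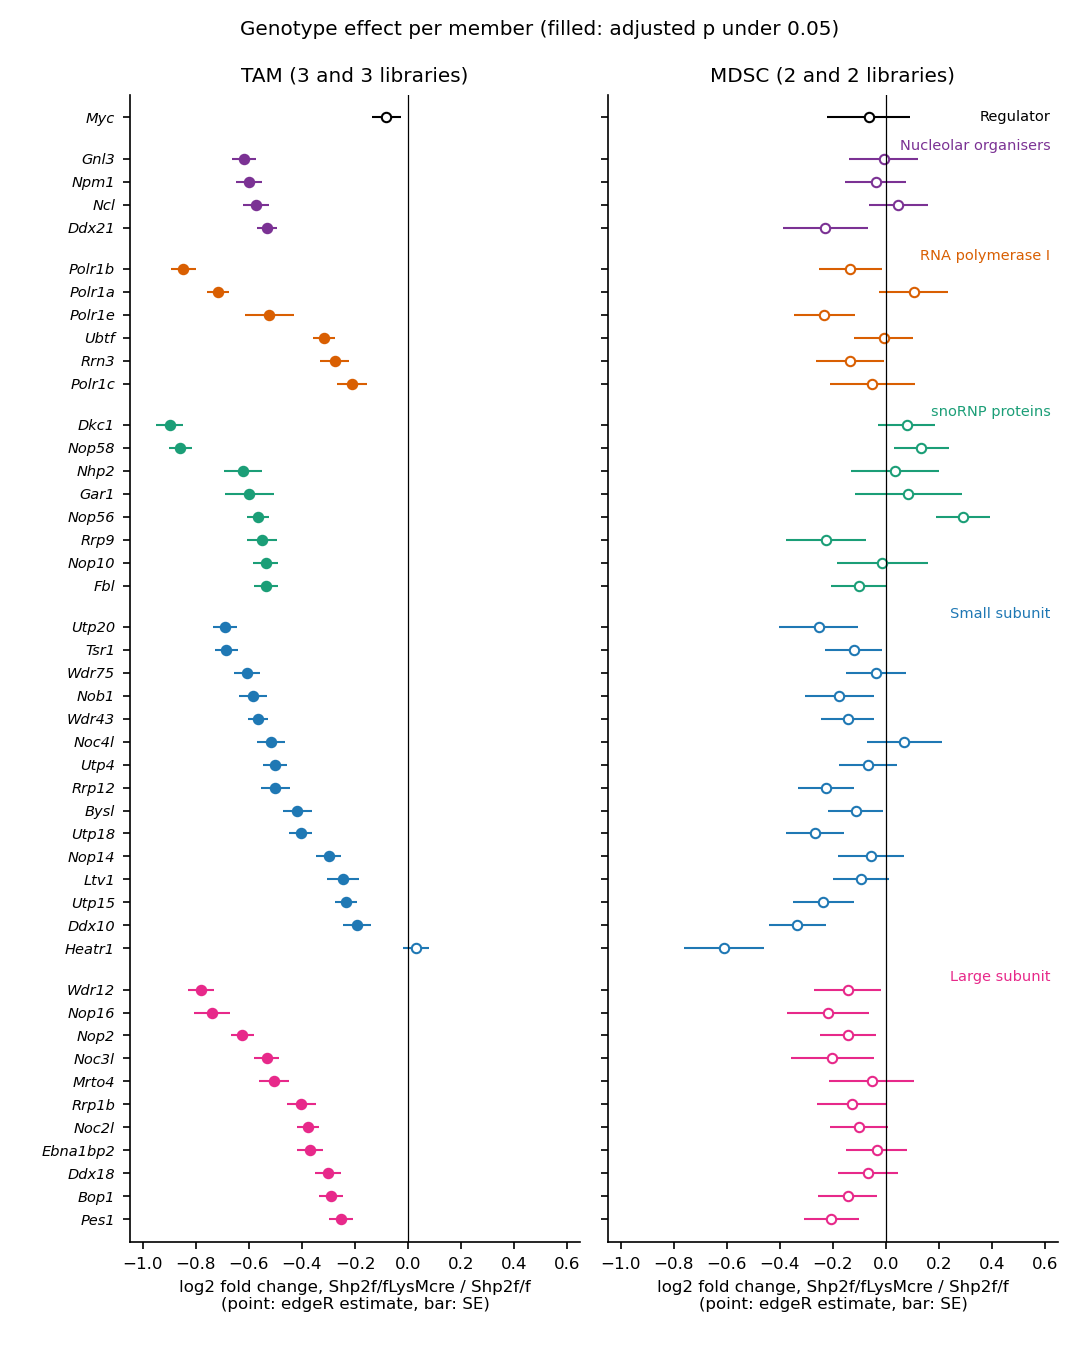
Points give the edgeR log2 fold change (Shp2f/fLysMcre over Shp2f/f) of each member and bars its SE, in TAM (3 and 3 libraries) and MDSC (2 and 2 libraries). Filled points passed an adjusted p under 0.05: 43 in TAM, all to the left of 0, and 0 in MDSC.

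The remaining ribosome biogenesis genes were also without a call in MDSC. Of the 117 genes, 0 passed edgeR's test and 0 passed DESeq2's, and their median was -0.08. An unadjusted edgeR p under 0.05 was reached by 6 of them, where 2859 of all 14806 genes reached it. The proliferation list moved the other way from TAM: 17 of 20 genes rose (median 0.996), with sums of 1389 to 1441 CPM in Shp2f/f and 2754 to 2925 CPM in Shp2f/fLysMcre MDSC. Rrm2 (log2 fold change 1.35), Tk1 (1.31) and Cdk1 (1.25), which serve DNA synthesis and mitosis, had the largest rises. Of 25 other Myc targets tested, 3 rose: Cdc25a (1.12), Tyms (0.98) and Tfrc (0.94). In the Myc network, Mxd3 rose (1.238). Of 13 erythroid markers 10 rose and 1 fell, and they summed to 519 to 555 CPM in Shp2f/f and 1083 to 1322 CPM in Shp2f/fLysMcre MDSC. Neutrophil markers rose in 6 of 11 genes, with sums of 9952 to 10296 and 28003 to 31851 CPM. Among macrophage markers 1 of 10 fell and 0 rose, and among B and plasma cell markers 2 of 10 fell and 0 rose. The B and plasma cell list nevertheless summed to 2656 to 3478 CPM in Shp2f/f and 3262 to 4016 CPM in Shp2f/fLysMcre MDSC, which overlap. Of 10 fibroblast and tumor markers tested, 0 were called by edgeR, 2 by DESeq2 (both higher) and 7 had an unadjusted edgeR p under 0.05. Their median log2 fold change was 3.73. With Fn1 left out, the summed level of the list was high in Shp2f/fLysMcre library 2 alone, as given above. The part of these shifts in the members' values was not tested.

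Whether the genotype effect differed between the cell types was tested directly, as the effect in TAM minus the effect in MDSC. In an edgeR fit of all 10 libraries, 21 of the 45 members differed, 20 with a more negative effect in TAM and 1 with a more positive one, where 24.9% of all 16581 genes were called (12.7% more negative and 12.2% more positive). That fit takes 1 spread per gene for both cell types, although the MDSC libraries varied more. With weights per cell type (limma voom) 17 members were called (16.9% of all genes), and with the separate fits' own errors 18 (18.6%). The same 17 members were called in all 3 tests, both latter tests having been added after the data were seen. The members' median difference was -0.38, against -0.01 over all genes. Without Shp2f/fLysMcre MDSC library 2, edgeR called 22 members and 25.4% of all genes.

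The largest differences were in the snoRNP and polymerase I groups. Nop58 (-0.96, SE 0.087, edgeR adjusted p = 5.81e-05) and Dkc1 (-0.95, SE 0.091, adjusted p = 8.09e-05) led, followed by Nop56 (-0.83), Polr1a (-0.79) and Polr1b (-0.68). Nop56, Polr1a, Nop58 and Dkc1 had negative estimates in TAM and positive ones in MDSC, but in the fit of MDSC alone these MDSC values did not pass the test. Only Nop56 was called in both directions in any setting: in the fit of all 10 libraries it was higher in MDSC (0.30, adjusted p = 0.0102) and lower in TAM (-0.53, adjusted p = 6.58e-05). Ncl, Npm1, Gnl3, Fbl, Wdr43, Wdr75, Utp4, Noc4l, Tsr1, Wdr12 and Nop2 were also called in all 3 tests with a more negative effect in TAM. Ubtf, Nhp2, Utp20 and Nob1 were called in the edgeR fit but not in all 3. Their calls were also lost with most single libraries left out, while Fbl lost its call without Shp2f/f MDSC library 1 (adjusted p = 0.0795) and Noc4l without Shp2f/f MDSC library 2 (adjusted p = 0.0738). Of the 11 large subunit factors 2 were called (Wdr12 and Nop2), and some had close estimates in both cell types: Pes1, for one, had log2 fold changes of -0.25 in TAM and -0.21 in MDSC (difference -0.02, SE 0.087, edgeR adjusted p = 0.918).

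Heatr1 was the 1 called member with the reverse order. Its effect was higher in TAM than in MDSC by 0.67 on the log2 scale (SE 0.13, edgeR adjusted p = 0.00536; 0.0347 with separate fits). Myc was called in neither cell type, and its effects were not told apart, with a difference of 0.01 and an SE of 0.15 (edgeR adjusted p = 0.981). Over the alternatives this difference ran from -0.17 to 0.21, and its sign changed with the scaling. Of the 117 other ribosome biogenesis genes, 26 had a more negative effect in TAM and 2 a more positive one. Together these were 23.9%, close to the 24.9% of all genes, but all genes were split evenly (12.7% more negative and 12.2% more positive). The median difference of the 117 genes was -0.18, against -0.01 over all genes. All 20 proliferation genes had a more negative effect in TAM (median -1.77, beyond the difference of every member).

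**Figure D5:**
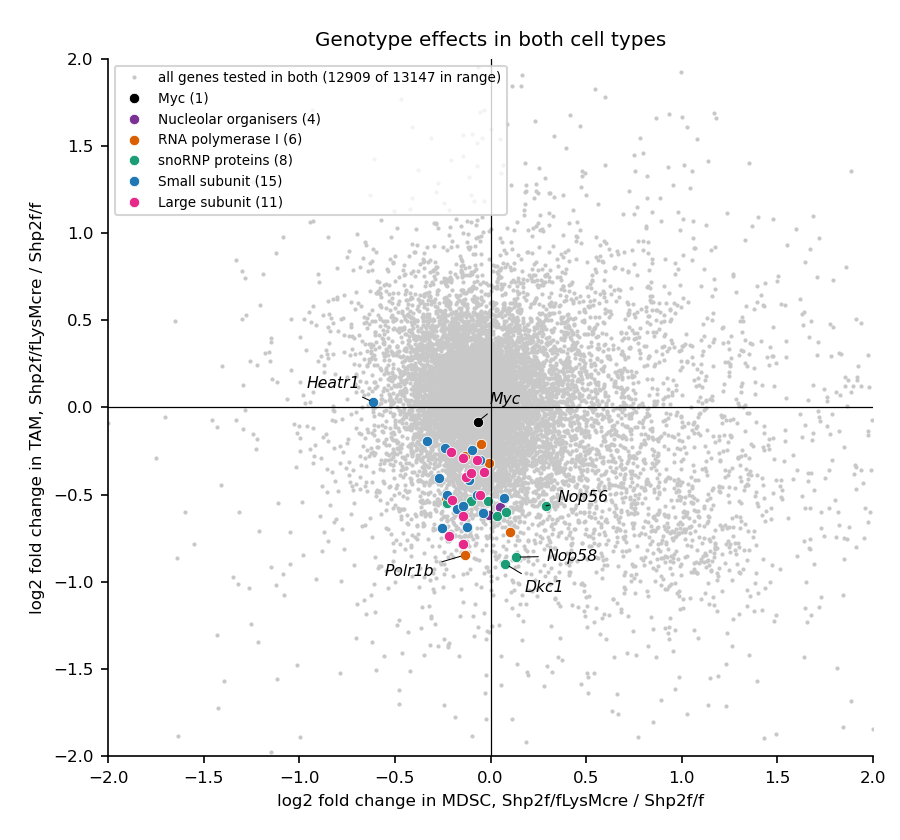
Each point is a gene: the x axis gives its log2 fold change (Shp2f/fLysMcre over Shp2f/f) in MDSC and the y axis that in TAM, with members colored by role over the 12909 of 13147 genes tested in both cell types that fall within the axes. The members form a vertical band under 0 on the y axis and near 0 on the x axis, with Myc close to the origin and Heatr1 alone at the left.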

How the data were processed

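RNA-seq was done on 10 libraries from 400 ng of RNA each, by poly(A) selection with a stranded kit and paired-end reads. Per the labels and the study's methods, the authors trimmed reads with cutadapt 2.5, aligned them to GRCm38 with STAR 2.7.3a and deposited raw read counts per Ensembl gene from featureCounts (Subread 1.6.2). A second deposited table holds those counts divided by DESeq2 size factors and was not used. Of the 55421 gene identifiers, 55240 matched the GRCm38 annotation. Counts were fitted with edgeR 4.0.16 (R 4.3.3): filterByExpr with a count minimum of 10, TMM scaling and the quasi-likelihood F test, with Benjamini-Hochberg adjustment over all genes tested and calls at an adjusted p under 0.05. A log2 fold change above 0 is higher in Shp2f/fLysMcre, or in TAM where cell types were compared. TAM and MDSC genotype effects were fitted separately, and their difference in 1 fit of all libraries. That fit takes 1 spread per gene for both cell types, so limma 3.58.1 (voom with weights per cell type) and a test from the separate fits were added after the data were seen. Scripts were tested on simulated data. CPM values were TMM scaled within each comparison, unless given as CPM of the total count. All lists' summed levels are CPM of the total count. Alternatives were DESeq2 1.42.0, other scalings, filters and thresholds, a replicate block and leaving out each library.

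Replicate libraries differed by more than sampling noise (chi-square per degree of freedom 4.46 to 58.1). Members and lists were chosen with earlier results of these data known. Values in every library were given by rule for Myc and the 4 called members with the largest change in TAM. Those of other members, and the E-box stretches from 100 bases before to 30 after the start, were chosen after values were seen. Named genes of other lists are the 3 called genes with the largest change and a mean of at least 5 CPM.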

Additional observations from a re-analysis of the deposited data

Results flagged for a closer look

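For 21 members the effect of genotype was not the same in both cell types by the edgeR test of the difference (effect in TAM less effect in MDSC, log2). It was more negative in TAM for the snoRNP proteins Nop58 (-0.963), Dkc1 (-0.947), Nop56 (-0.826), Nhp2 (-0.632) and Fbl (-0.406). Of the polymerase I genes, Polr1a (-0.79), Polr1b (-0.683) and Ubtf (-0.278) differed, and of the nucleolar organisers Ncl (-0.591), Gnl3 (-0.582) and Npm1 (-0.534). The small subunit factors were Noc4l (-0.56), Wdr75 (-0.543), Tsr1 (-0.535), Utp20 (-0.405), Utp4 (-0.403), Wdr43 (-0.394) and Nob1 (-0.381), and the large subunit factors Wdr12 (-0.61) and Nop2 (-0.454). Heatr1 was the 1 member among the 21 with a more positive effect in TAM (0.673). Ubtf, Nhp2, Utp20 and Nob1 were not called by each of the 3 tests of the difference. The highest edgeR adjusted p among the 21 was that of Nob1 (0.0493).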

How the results depend on the processing

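In TAM, 42 to 44 members were called with 1 library left out (41.9% to 49.3% of all genes). When a log2 fold change of at least 0.5 in size was also required, 28 members were called there (16.8% of all genes). The members' median there was -0.63 (-0.629) with total-count scaling, -0.50 (-0.4951) in 1 fit of all 10 libraries and -0.5489 to -0.5038 with 1 library left out. Total-count scaling moved the median of all genes to -0.11 in TAM, and the members lay -0.52 from it, as with TMM. In MDSC, DESeq2 called 1 member (8.48% of all genes), the fit of all 10 libraries 5 (16.1%), and leaving out 1 library 0 to 4 (27.2% where 4), while the median was -0.05386 with total-count scaling and -0.1459 to -0.06687 with 1 library left out. For the difference between cell types, total-count scaling called 36 members (median -0.5572), but it also moved the median of all genes to -0.18. The members lay -0.37 from that median, as with TMM. Leaving out 1 library gave a members' median of -0.3873 to -0.2929, against -0.032 to 0.034 over all genes. The members' median was -0.3482 with DESeq2, -0.3483 with its size factors, -0.3478 without a filter, -0.4085 with separate fits and -0.4125 where genes needed a mean of 1 CPM or more. Between cell types of Shp2f/f mice, leaving out 1 library gave a members' median of 0.7138 to 0.7837, against -0.005 to 0.043 over all genes. The members' median was 0.7433 with total-count scaling, 0.7833 without a filter and 0.7444 with a mean of at least 1 CPM. Signs changed only for small values among the 8 members followed: Heatr1 in TAM (-0.06786 with total-count scaling, -0.005616 to 0.07963 with 1 library left out), Myc and Polr1a in MDSC (-0.2499 to 0.06944 and -0.06709 to 0.2356 with 1 library left out), and Myc in the difference (-0.1661 with total-count scaling, -0.02062 with a mean of at least 1 CPM, -0.01562 with separate fits, -0.1521 to 0.2062 with 1 library left out). The cause of these shifts was not tested. With the replicate number as a block, 43 members were called in TAM (47.7% of all genes) and 2 in MDSC (Heatr1 and Ddx10, with 18.1% of all genes). The block gave a members' median of -0.38 in the difference, against -0.01 over all genes. Between cell types it gave a members' median of 0.76, against 0.01 over all genes. Libraries of the same number did not deviate together in TAM (correlations -0.162, 0.055 and 0.016). In MDSC the 2 libraries of a group deviate from their mean by opposite amounts. Both pairs therefore give the same value (0.363), which counts as 1 observation. Nothing in the labels pairs the libraries. Of the other values compared, 318 values of single members kept their direction and their side of the threshold. Of the summary values, 90 stayed close to the main fit (for medians, within the SD between replicates). A further 21 medians moved by more than that SD, 6 counts of calls were clearly higher and 1 was lower. The number of medians that changed sign was 0. With 2 libraries per MDSC group, leaving 1 out leaves a lone library, which is assumed to vary like the others.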
